A study of Rattus norvegicus with 30 samples.

Results

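Aminoacyl-tRNA synthetases are the enzymes that attach each amino acid to its own tRNA. In animal cells most amino acids have 2 of them, one for the cytosol and one for the mitochondrion, and both are encoded in the nucleus. The set described here was a list of 35 genes, 19 named for cytosolic enzymes or their subunits and 16 for mitochondrial ones, whose symbols end in 2. It was drawn from a microarray study of rat primary hepatocytes, and 32 of the 35 genes had a probe set that names them alone: all 19 cytosolic genes and 13 mitochondrial ones. Lars2, Mars2 and Pars2 had none and are not described. Nars2 was measured but stayed below the filter on dim probe sets, so 31 synthetases stood among the 11504 genes tested. The rule takes members by name and uses no measured value, but the list was drawn up with earlier results of these data known. Where a gene had several probe sets, the one with the highest mean over the 30 arrays was used.

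The cells were frozen hepatocytes of male Sprague Dawley rats, bought from XenoTech, thawed, plated on collagen under Matrigel and treated from day 3 of culture. The groups were chlorpromazine HCl at 20 µM for 24 h, the same at 20 µM for 48 h, 0.8 µM for 24 h, 0.8 µM for 48 h, and vehicle (1% DMSO) for 24 h and for 48 h, with 5 arrays in each. The dosing solutions of the compound were prepared in DMSO as well. Chlorpromazine is an antipsychotic drug that can disturb bile flow in the liver. Each group had 5 wells, described as independent cultures with no separate animals named, and a p-value here weighs a difference against the spread from well to well. The title of replicate 2 of vehicle at 24 h gives 2 h where its time entry gives 24 h, and the entry was followed. The arrays were numbered in 1 fixed sequence of groups, repeated for each replicate; the effect of that place in the sequence and those of dose and time cannot be told apart.

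The cytosolic enzymes supply the ribosomes of the cytosol, and the mitochondrial enzymes supply the ribosomes that make a few respiratory chain subunits inside the organelle. In mammals the glutamyl-prolyl, isoleucyl, leucyl, methionyl, glutaminyl, arginyl, lysyl and aspartyl enzymes are held together in a multisynthetase complex by the scaffold proteins AIMP1, AIMP2 and EEF1E1. Many cytosolic synthetase genes are known targets of ATF4, a transcription factor made when eIF2 is phosphorylated under amino acid shortage or other stress. ATF4 with a C/EBP partner binds a composite element that reads TGATGCAA or close to it. Kars1 and Gars1 each give both a cytosolic and a mitochondrial enzyme, Eprs1 joins 2 activities in 1 protein, and Farsa and Farsb encode the 2 subunits of the cytosolic phenylalanyl enzyme. They are counted as cytosolic here.

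The following promoter stretches are shown because the element just named lies in them, and because the cytosolic and mitochondrial genes differ in how often it does. RefSeq promoters of the build GRCr8, from 250 bases before to 50 bases after a transcript start, were searched on both strands for TGATGCAA, whose reverse complement is TTGCATCA. The match is in capitals, and each stretch is written on the strand of its gene. The stretches lie at chr1:208225334-208225363 (Cars1, minus strand), chr17:15193658-15193687 (Iars1, minus strand), chr7:65023752-65023781 (Mars1, minus strand), chr18:60275783-60275842 (Nars1, minus strand), chr2:62114803-62114862 (Tars1, minus strand) and chr5:146820190-146820212 (Yars1, plus strand).
Cars1: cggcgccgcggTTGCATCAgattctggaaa
Iars1: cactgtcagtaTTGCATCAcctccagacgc
Mars1: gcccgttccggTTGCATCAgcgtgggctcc
Nars1: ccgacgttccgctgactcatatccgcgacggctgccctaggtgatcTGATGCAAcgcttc
Tars1: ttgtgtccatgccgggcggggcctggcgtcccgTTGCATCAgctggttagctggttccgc
Yars1: acgagctcagcTGATGCAAcctg

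The 8 letters stood in 7 of the 17 cytosolic promoters on hand (41.2%), in 0 of 13 mitochondrial ones, and in 266 of all 33469 promoters (0.795%). A looser form, TGATGNAA, which includes the first, stood in 1332 of all promoters (3.98%) and in the same 7 synthetase promoters. Gars1 and Rars1 had no entry. In Iars1, Mars1, Nars1 and Tars1 the match lay within the last 27 bases before the transcript start of the promoter table, and in Cars1 and Yars1 it lay just after it. That start is where the annotated gene begins for Nars1, Tars1 and Yars1. It lies inside the annotated span of Mars1 (127 bases in), Iars1 (64) and Cars1 (56), so that the matches of Iars1 and Mars1 lie within the gene as annotated. A match of letters is a description of sequence; binding was not measured here.

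Signals were the authors' MAS5 values on a linear scale, used here as log2 after raising any value under 16 to 16. Every array had the same trimmed mean signal (1500), the medians ranged from 380 to 449, and the mean correlation of an array with its group ranged from 0.965 to 0.974. The hepatocyte label was checked with 7 measured markers, all of which were above the arrays' 40th percentile, with albumin (Alb) at 16.55. Of other cell types, 5 of 6 Kupffer cell, 2 of 6 endothelial, 5 of 7 stellate and 1 of 5 cholangiocyte markers were above it, the last being Epcam; Krt19, Krt7, Spp1 and Cftr were below. The summed signal of the 6 Kupffer cell markers was 9902 to 11035 at 20 µM, against 11708 to 12850 in vehicle, at 24 h, and 8284 to 9706 at 20 µM, against 10805 to 12520 in vehicle, at 48 h. Lyz2 makes up most of that sum, with a mean log2 signal of 12.89 over the arrays, against 10.49 for Cd68, the next marker. Of these markers Lyz2 was lower at both times (-0.40 ± 0.07 and -0.79 ± 0.07) and Cd68 was higher at 48 h (1.44 ± 0.13). Cd163, Clec4f, Csf1r and Ptprc were called at neither time. The part of these cells in the results was not tested. In cultures measured in bulk, fewer cells of a type and less RNA per cell cannot be told apart.

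At 20 µM the cytosolic synthetases were mostly higher than in vehicle, and the mitochondrial ones mostly did not pass the test. After 24 h, 14 of 19 cytosolic genes were higher than in vehicle and 0 were lower, while 2 of 12 mitochondrial genes were higher and 0 lower. Over all genes tested 13.4% were called higher and 10.4% lower, 23.8% in all. After 48 h the counts were 13 of 19 cytosolic and 1 of 12 mitochondrial genes higher and 0 lower, against 20.3% higher and 14.9% lower over all genes, 35.2% in all. The median log2 change of the cytosolic genes was 0.27 at 24 h (range 0.07 to 0.65) and 0.24 at 48 h (range 0.01 to 0.92). That of the mitochondrial genes was 0.12 (range -0.25 to 0.35) and 0.04 (range -0.32 to 0.40), and that of all genes was 0.01 and 0.04. Genes were called at an adjusted p under 0.05 by limma, with Benjamini-Hochberg adjustment over all genes of a comparison, and every change is a difference of log2 signals, 20 µM minus vehicle, with its standard error.

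The 20 µM arrays lay wholly above the vehicle arrays for 9 cytosolic and 2 mitochondrial genes at 24 h, where 9.28% of all genes did so, and for 11 and 1 at 48 h, where 14.8% did. With arrays centred on their medians, all genes shifted by 0.07 at 24 h and 0.08 at 48 h, and called genes split 69.1% higher at 24 h in place of 56.1% and 65.6% at 48 h in place of 57.7%. The cytosolic count was then 14 at each time with medians of 0.33 and 0.28. When the mean of all kept probe sets stood for each gene, the cytosolic count was 7 at 24 h and 10 at 48 h. Over all 11504 genes, 1391 and 2110 were then called higher, in place of 1537 and 2338.

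**Figure D1:**
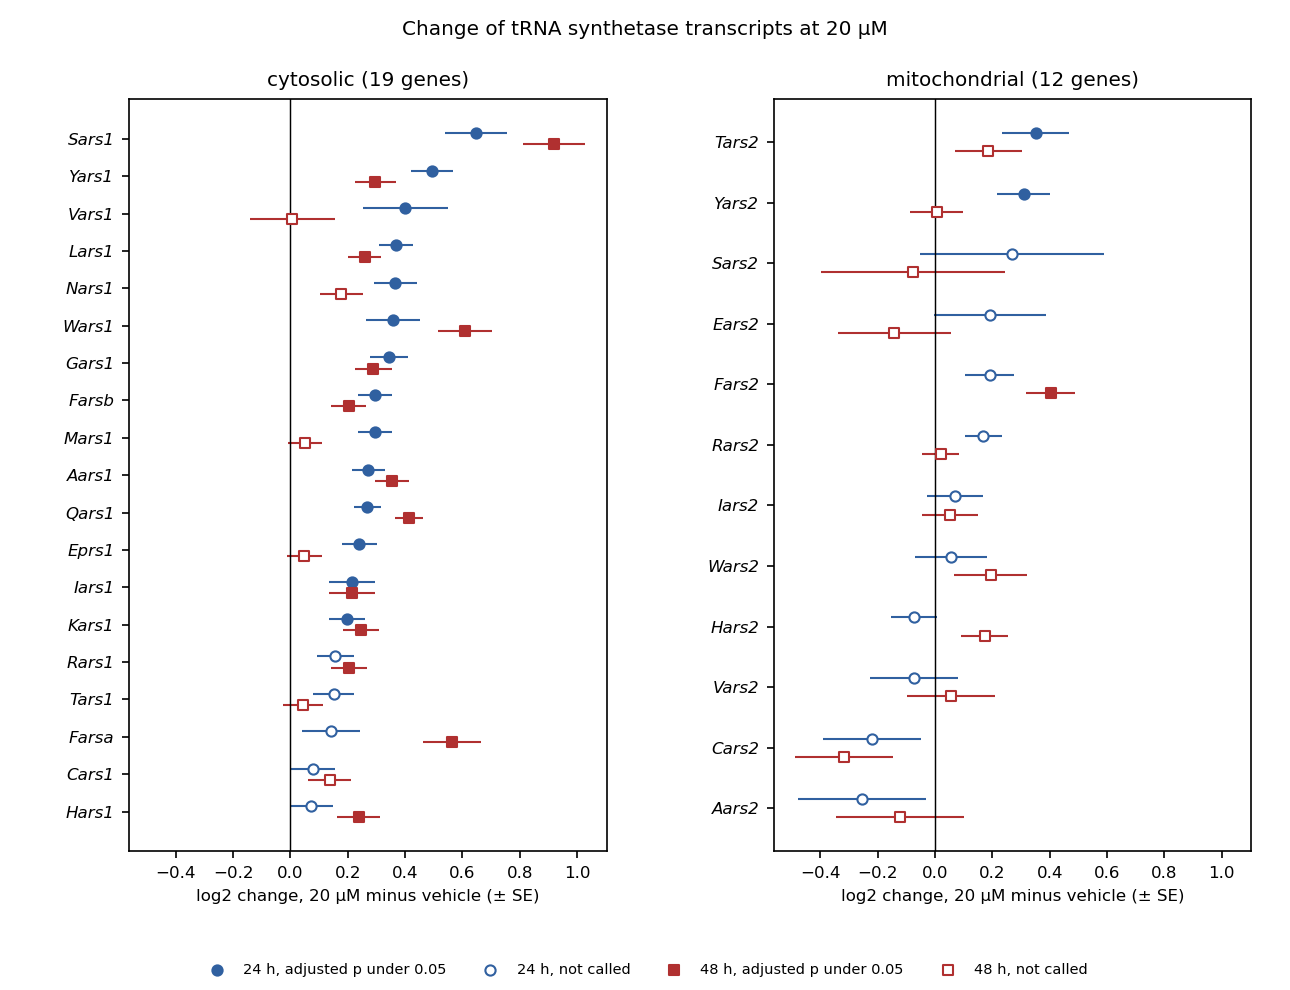
Log2 change of 31 synthetase transcripts at 20 µM chlorpromazine minus vehicle, for 19 cytosolic genes (left) and 12 mitochondrial genes (right), with bars of 1 standard error; circles are 24 h, squares 48 h, and filled symbols passed an adjusted p of 0.05. All 19 cytosolic changes lie above 0 at both times, while the mitochondrial changes lie on both sides of it.

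Of the 19 cytosolic genes, 10 were called at both times: Aars1, Farsb, Gars1, Iars1, Kars1, Lars1, Qars1, Sars1, Wars1 and Yars1. Eprs1, Mars1, Nars1 and Vars1 were called at 24 h, and Farsa, Hars1 and Rars1 at 48 h. Cars1 and Tars1, the cysteinyl and threonyl enzymes, were called at neither time; their changes were 0.08 ± 0.08 and 0.15 ± 0.07 at 24 h, and 0.14 ± 0.08 and 0.04 ± 0.07 at 48 h. No synthetase was called for a difference between its 48 h and 24 h changes, where 4.21% of all genes were. The smallest adjusted p values of that test in limma were 0.101 for Farsa, with a difference of 0.42 ± 0.14, and 0.108 for Mars1, with -0.24 ± 0.08. Both were called under array weights (Farsa 0.45, adjusted p = 0.047; Mars1 -0.27, adjusted p = 0.0424) and without replicate 5 of vehicle at 24 h (0.50, adjusted p = 0.0256; -0.29, adjusted p = 0.0242). A call at 1 time alone does not by itself show a difference between the times.

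Among the cytosolic enzymes outside the multisynthetase complex, 8 of 12 were higher at each time, with a median change of 0.32 at 24 h and 0.26 at 48 h. The largest change of all members was that of Sars1, the seryl enzyme. Sars1 read 13.11, 13.15, 13.12, 12.89 and 13.06 at 20 µM after 24 h, against 12.72, 12.45, 12.36, 12.35 and 12.22 in vehicle. After 48 h it read 13.18, 13.07, 13.13, 13.24 and 13.47 at 20 µM, against 12.43, 12.17, 12.12, 12.44 and 12.32. The lowest treated array stood above the highest vehicle array at both times, by a wider margin at 48 h. Its change was 0.65 ± 0.11 at 24 h (1.57-fold, adjusted p = 2.27e-05) and 0.92 ± 0.11 at 48 h (1.89-fold, adjusted p = 2.53e-08, limma). The difference between those changes, 0.27, did not pass the test (adjusted p = 0.396).

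Wars1 is the cytosolic tryptophanyl enzyme, also known as a gene induced by interferon gamma. At 24 h it read 11.34, 11.40, 11.32, 11.22 and 11.16 at 20 µM, against 10.84, 10.98, 11.06, 11.06 and 10.71 in vehicle. At 48 h the 20 µM arrays gave 11.55, 11.30, 11.38, 11.38 and 11.31, against 10.81, 10.93, 10.48, 10.81 and 10.86. The groups did not overlap at either time, and the lowest vehicle array at 48 h stood apart from the other 4. The changes were 0.36 ± 0.09 (adjusted p = 0.00481) and 0.61 ± 0.09 (adjusted p = 3.9e-06, limma).

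Yars1, the tyrosyl enzyme, read 13.05, 13.03, 13.36, 13.04 and 13.21 at 20 µM after 24 h, against 12.77, 12.46, 12.52, 12.62 and 12.83 in vehicle. After 48 h it read 12.96, 12.91, 13.04, 12.97 and 13.01 at 20 µM, against 12.72, 12.71, 12.59, 12.80 and 12.61 in vehicle. All treated arrays were higher than all vehicle arrays at both times, and the 48 h treated arrays lay close together. It rose by 0.49 ± 0.07 at 24 h (adjusted p = 3.8e-06) and by 0.30 ± 0.07 at 48 h (adjusted p = 0.00152, limma).

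The 2 subunits of the phenylalanyl enzyme differed in which time they passed the test. Farsa, the catalytic alpha subunit, read 10.62, 10.71, 10.73, 10.41 and 10.55 at 20 µM after 24 h, against 10.70, 10.66, 10.53, 10.28 and 10.14 in vehicle. The 48 h arrays gave 10.84, 10.81, 10.50, 10.73 and 10.61 at 20 µM, against 10.02, 10.04, 9.97, 10.32 and 10.32. The groups were mixed at 24 h and apart at 48 h. The change was 0.14 ± 0.10 at 24 h (adjusted p = 0.354) and 0.56 ± 0.10 at 48 h (adjusted p = 3.93e-05, limma). Vehicle Farsa itself was lower at 48 h than at 24 h, with a difference of -0.33 ± 0.10. Farsb, the beta subunit, rose by 0.29 ± 0.06 at 24 h and 0.20 ± 0.06 at 48 h. Its other probe set, with wider errors, did not rise at either time.

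Vars1, the valyl enzyme, which binds elongation factor 1, and Nars1, the asparaginyl enzyme, were called at 24 h. Vars1 read 10.10, 10.27, 10.07, 10.39 and 10.09 at 20 µM after 24 h, against 10.06, 9.72, 9.38, 9.78 and 9.98 in vehicle. At 48 h it read 10.23, 9.90, 9.996, 9.95 and 10.38 at 20 µM, against 10.10, 10.11, 10.07, 10.01 and 10.13. The 24 h groups were apart by a narrow margin, and at 48 h the vehicle arrays lay inside the treated range. Its change was 0.40 ± 0.15 at 24 h, just past the threshold (adjusted p = 0.0483), and 0.01 ± 0.15 at 48 h (adjusted p = 0.978, limma). The 24 h call was lost without any 1 of 21 of the 30 arrays, with changes of 0.30 to 0.47 over all 30 fits that leave 1 out.

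Nars1 read 14.08, 14.21, 14.06, 14.24 and 14.15 at 20 µM after 24 h, against 14.05, 13.68, 13.61, 13.73 and 13.84 in vehicle. At 48 h it read 14.22, 14.31, 14.09, 14.03 and 14.24 at 20 µM, against 14.05, 13.77, 14.10, 14.10 and 13.99. The treated arrays were on top at 24 h, with 1 vehicle array close to them, and the groups overlapped at 48 h. Nars1 rose by 0.37 ± 0.07 at 24 h (adjusted p = 0.000342), and its 48 h change was 0.18 ± 0.07 (adjusted p = 0.0627, limma).

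Gars1, the glycyl enzyme, rose by 0.34 ± 0.07 and 0.29 ± 0.07, and its other probe set by 0.46 ± 0.10 and 0.42 ± 0.10. Aars1, the alanyl enzyme, rose by 0.27 ± 0.06 and 0.35 ± 0.06, with the groups apart at both times. Hars1, the histidyl enzyme, was at 0.07 ± 0.08 at 24 h and rose by 0.24 ± 0.08 at 48 h. Hars1 and the mitochondrial Hars2 are neighbours on chromosome 18 that run in opposite directions, with 143 bases between their transcript starts in the RefSeq promoter table of GRCr8. Hars2 was at -0.07 ± 0.08 and 0.17 ± 0.08, not called at either time, while its other probe set rose by 0.32 ± 0.12 at 48 h.

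Of the 7 members that belong to the multisynthetase complex, 6 were higher at 24 h and 5 at 48 h, with median changes of 0.24 and 0.21. Qars1, the glutaminyl enzyme, gave 12.66, 12.63, 12.70, 12.63 and 12.67 at 20 µM after 24 h, against 12.40, 12.40, 12.37, 12.36 and 12.43 in vehicle. After 48 h it gave 12.43, 12.61, 12.75, 12.65 and 12.72 at 20 µM, against 12.19, 12.22, 12.13, 12.29 and 12.26. Its cultures differed little within a group, apart from 1 lower treated array at 48 h, and treated and vehicle arrays were apart at both times. Qars1 rose by 0.27 ± 0.05 (adjusted p = 5.68e-05) and 0.41 ± 0.05 (adjusted p = 1.65e-08, limma).

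Lars1, the leucyl enzyme, which also acts as a leucine sensor for mTORC1, gave 12.95, 12.92, 12.92, 12.98 and 12.87 at 20 µM after 24 h, against 12.51, 12.44, 12.58, 12.47 and 12.80 in vehicle. After 48 h it gave 13.16, 13.07, 13.10, 13.17 and 13.34 at 20 µM, against 12.91, 12.87, 12.91, 12.92 and 12.93. The 48 h vehicle arrays reached the level of the 24 h treated ones, and the 48 h treated arrays lay above both. Lars1 rose by 0.37 ± 0.06 at 24 h (adjusted p = 1.1e-05) and by 0.26 ± 0.06 at 48 h (adjusted p = 0.000604, limma).

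Eprs1, the glutamyl-prolyl enzyme, and Mars1, the methionyl enzyme, were called at 20 µM after 24 h and not after 48 h. Eprs1 gave 13.23, 13.21, 13.24, 13.35 and 13.09 at 20 µM after 24 h, against 12.98, 12.89, 12.90, 13.05 and 13.11 in vehicle. After 48 h it gave 13.24, 13.26, 13.42, 13.28 and 13.41 at 20 µM, against 13.21, 13.21, 13.20, 13.40 and 13.35. At 24 h only the lowest treated array reached into the vehicle range, and at 48 h the groups covered nearly the same range. The changes were 0.24 ± 0.06 (adjusted p = 0.00339) and 0.05 ± 0.06 (adjusted p = 0.599, limma). Of the other Eprs1 probe sets, 1 rose by 0.46 ± 0.14 at 24 h and another was at -0.24 ± 0.29.

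Mars1 gave 12.80, 12.71, 12.92, 12.81 and 13.05 at 20 µM after 24 h, against 12.62, 12.45, 12.52, 12.47 and 12.76 in vehicle. After 48 h it gave 12.80, 12.75, 12.82, 12.79 and 12.86 at 20 µM, against 12.88, 12.74, 12.66, 12.76 and 12.73. At 24 h the highest vehicle array lay inside the treated range, and at 48 h 1 vehicle array lay above all treated ones and another among them. Its changes were 0.29 ± 0.06 (adjusted p = 0.00034) and 0.05 ± 0.06 (adjusted p = 0.574, limma).

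Kars1, Iars1 and Rars1 are the lysyl, isoleucyl and arginyl enzymes. Kars1 rose by 0.20 ± 0.06 at 24 h and 0.25 ± 0.06 at 48 h, and Iars1 by 0.21 ± 0.08 at each time. The other probe set of Kars1, with wide errors, was called at neither time. The 24 h call of Iars1 (adjusted p = 0.0477, limma) was lost without any 1 of 23 arrays and its 48 h call without any 1 of 5. The 24 h call of Kars1 was lost without any 1 of 4 arrays. Rars1 was at 0.16 ± 0.06 at 24 h (adjusted p = 0.0738) and rose by 0.20 ± 0.06 at 48 h (adjusted p = 0.012, limma), a call lost without replicate 3 of vehicle at 48 h.

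**Figure D2:**
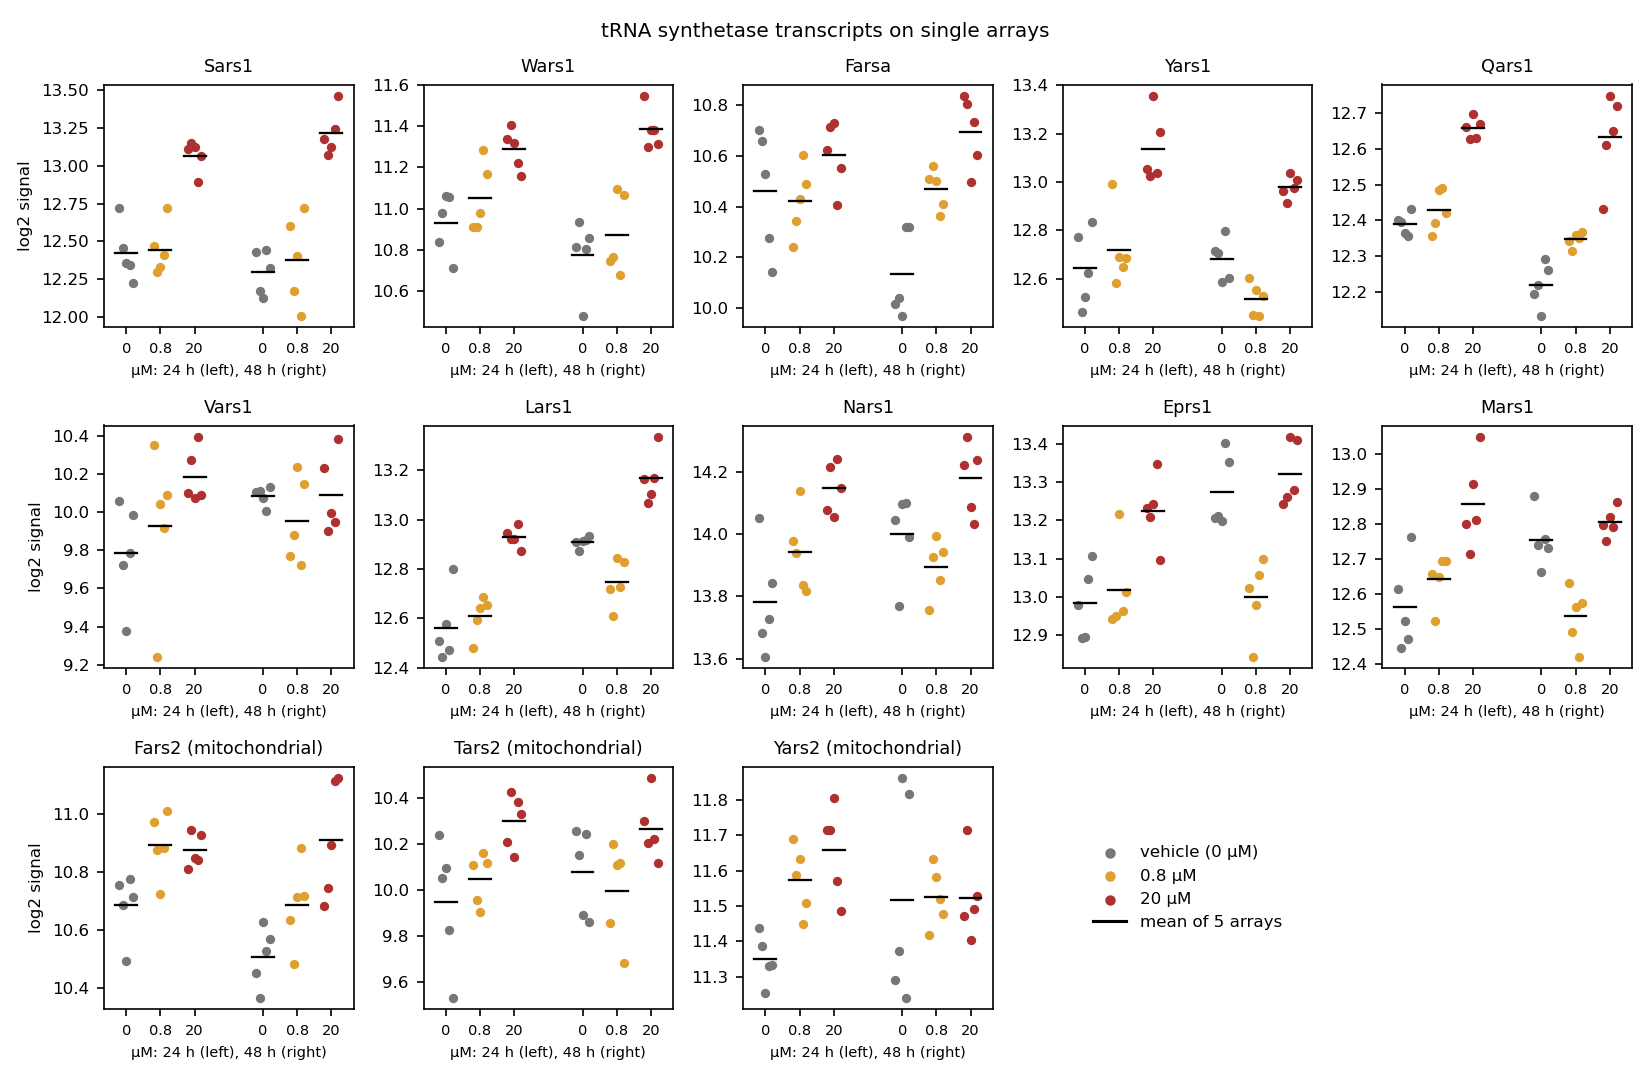
Log2 signal of 13 synthetase transcripts on each of the 30 arrays, by chlorpromazine concentration (0, 0.8 and 20 µM; 0 is vehicle) at 24 h and 48 h, with a bar at the mean of 5 arrays; each panel has its own axis, which does not start at 0. Sars1, Wars1, Yars1, Qars1, Lars1 and the mitochondrial Fars2 show the 20 µM arrays above all vehicle arrays at both times. Eprs1 and Mars1 show the 0.8 µM arrays below the vehicle arrays at 48 h.

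Of the mitochondrial synthetases, Tars2 and Yars2 were higher at 24 h and Fars2 at 48 h. Fars2, the mitochondrial phenylalanyl enzyme, works as a single chain. It gave 10.81, 10.94, 10.85, 10.84 and 10.93 at 20 µM after 24 h, against 10.76, 10.68, 10.49, 10.78 and 10.71 in vehicle. On the later arrays it gave 10.68, 10.74, 10.89, 11.11 and 11.13 at 20 µM, against 10.45, 10.37, 10.63, 10.53 and 10.57. The treated arrays were above all vehicle arrays at both times, with little room at 24 h. Its change was 0.19 ± 0.09 at 24 h (adjusted p = 0.111) and 0.40 ± 0.09 at 48 h (adjusted p = 0.000305, limma).

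Tars2, the mitochondrial threonyl enzyme, gave 10.21, 10.43, 10.15, 10.38 and 10.33 at 20 µM after 24 h, against 10.24, 10.05, 10.10, 9.83 and 9.53 in vehicle. The 48 h arrays gave 10.30, 10.21, 10.49, 10.22 and 10.12 at 20 µM, against 10.26, 10.15, 9.89, 10.24 and 9.86. The groups overlapped at both times, and the lowest array of vehicle at 24 h stood below the rest. Tars2 rose by 0.35 ± 0.12 at 24 h (adjusted p = 0.0268), a call lost without any 1 of 5 arrays, and was at 0.19 ± 0.12 at 48 h (adjusted p = 0.24, limma).

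Yars2, the mitochondrial tyrosyl enzyme, gave 11.71, 11.71, 11.80, 11.57 and 11.49 at 20 µM after 24 h, against 11.44, 11.39, 11.26, 11.33 and 11.33 in vehicle. The 48 h arrays gave 11.47, 11.72, 11.40, 11.49 and 11.53 at 20 µM, against 11.29, 11.37, 11.86, 11.24 and 11.82. The groups were apart at 24 h, and at 48 h the vehicle arrays split into 2 high and 3 low ones around the treated ones. The change was 0.31 ± 0.09 at 24 h (adjusted p = 0.0134) and 0.01 ± 0.09 at 48 h (adjusted p = 0.976, limma).

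The other 9 mitochondrial members were called at neither time. Rars2 was at 0.17 ± 0.06 at 24 h (adjusted p = 0.0583, limma) and 0.02 ± 0.06 at 48 h. Cars2 and Aars2 had negative values at both times, -0.22 ± 0.17 and -0.25 ± 0.22 at 24 h and -0.32 ± 0.17 and -0.12 ± 0.22 at 48 h. Sars2 and Ears2 were at 0.27 ± 0.32 and 0.19 ± 0.20 at 24 h and -0.08 ± 0.32 and -0.14 ± 0.20 at 48 h. Iars2, Vars2 and Wars2 lay between -0.07 and 0.19 at the 2 times. Nars2, which was not tested, passed the 40th percentile on 2 of 30 arrays and at 24 h read 4.09 to 7.82 in vehicle, 7.51 to 8.18 at 0.8 µM and 7.16 to 8.16 at 20 µM.

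The mitochondrial changes were measured less precisely. The median standard error was 0.12 over 12 mitochondrial genes and 0.07 over 19 cytosolic ones. At 24 h, 7 of 12 mitochondrial genes had a 95% interval that holds the cytosolic median change of 0.27, and the intervals of Aars2, Cars2, Hars2, Iars2 and Vars2 lay under it. At 48 h, 9 of 12 held the cytosolic median of 0.24, and Cars2, Rars2 and Yars2 lay under it. Cytosolic genes lay under their own median too. At 24 h, 15 of 19 cytosolic intervals held it and those of Cars1 and Hars1 lay under it. At 48 h, 12 of 19 held it and those of Eprs1, Mars1 and Tars1 lay under it.

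The mean over each class was also taken per array. Against the vehicle mean of the same time, the cytosolic class mean was 0.25 to 0.32 on the 20 µM arrays and -0.05 to 0.09 on the vehicle arrays at 24 h, and 0.24 to 0.34 and -0.06 to 0.04 at 48 h. The mitochondrial class mean was 0.05 to 0.12 on the 20 µM arrays, inside the vehicle range of -0.16 to 0.14, at 24 h, and -0.01 to 0.09 at 48 h, against -0.06 to 0.08. Within groups the members moved together only weakly: over the 30 arrays the mean pairwise Pearson r of deviations from group means was 0.10 among cytosolic genes, -0.04 among mitochondrial genes and 0.00 among all genes, which share arrays and normalization.

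**Figure D3:**
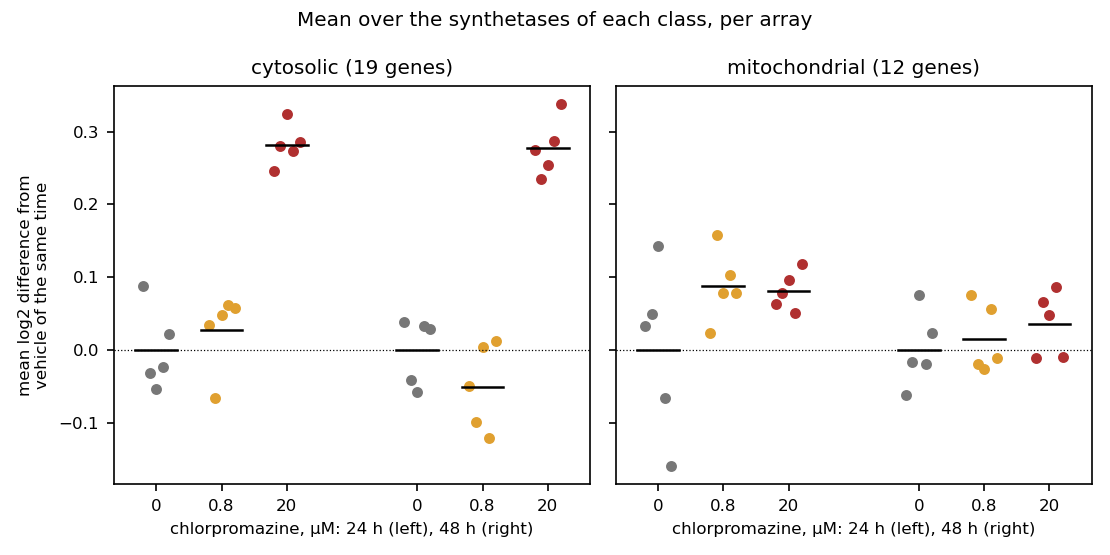
Mean over 19 cytosolic (left) and 12 mitochondrial (right) synthetases of the log2 difference from the vehicle mean of the same time, 1 point per array, by chlorpromazine concentration (0, 0.8 and 20 µM), with a bar at the mean of 5 arrays. The cytosolic points at 20 µM lie between 0.24 and 0.34, above all vehicle points, and the mitochondrial points at 20 µM overlap those of vehicle.

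Cytosolic and mitochondrial enzymes for the same amino acid could be set side by side in 12 pairs, in which Fars2 was paired with both Farsa and Farsb. The cytosolic change at 20 µM was the larger in 9 of 12 pairs at each time, with a median difference of 0.17 at both. Taken 1 by 1 and with no adjustment for the number of pairs, the 95% interval of the difference lay above 0 for Aars1 against Aars2 (0.53, from 0.05 to 1.00) and Vars1 against Vars2 (0.48, from 0.02 to 0.93) at 24 h. At 48 h it lay above 0 for the pairs of Sars1 (1.00, from 0.33 to 1.66), Cars1 (0.45, from 0.05 to 0.86), Wars1 (0.41, from 0.09 to 0.74) and Yars1 (0.29, from 0.02 to 0.56). Farsb and Fars2 went the other way at 48 h (-0.20, from -0.38 to -0.02). In the pair of threonyl enzymes the difference was -0.20 at 24 h and -0.14 at 48 h, with intervals that hold 0. The Wars1 to Wars2 ratio was higher on every 20 µM array than on every vehicle array at both times, and no other pair did that.

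**Figure D4:**
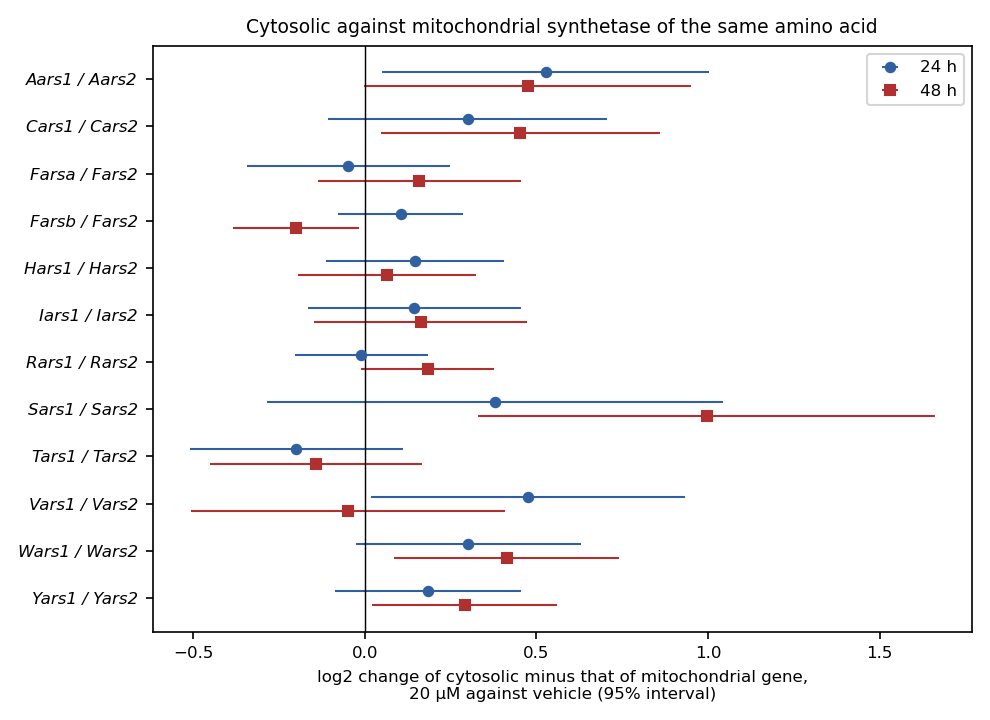
Difference in log2 change (20 µM minus vehicle) of the cytosolic synthetase minus that of the mitochondrial synthetase for the same amino acid, in 12 pairs, with 95% intervals that are not adjusted for the number of pairs; circles are 24 h and squares 48 h. The difference is above 0 in 9 pairs at each time, and the intervals of 2 pairs at 24 h and 4 at 48 h lie wholly above 0.

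At 0.8 µM few synthetases moved. At 24 h 0 of 31 were called by limma, where 0.826% of all genes were, and their changes ran from -0.35 to 0.26. At 48 h 2 were lower, where 1.74% of all genes were lower and 3.33% were called in all. Both belong to the multisynthetase complex. No synthetase was called higher, where 1.59% of all genes were. Eprs1 gave 13.02, 12.84, 12.98, 13.06 and 13.10 at 0.8 µM, against the 48 h vehicle values above, and changed by -0.27 ± 0.06 (adjusted p = 0.00935, limma). Mars1 gave 12.63, 12.49, 12.56, 12.42 and 12.57 at 0.8 µM and changed by -0.22 ± 0.06 (adjusted p = 0.0364, limma). In both genes every 0.8 µM array lay below every vehicle array, as for 2.42% of all genes. Both calls were lost when arrays were centred on their medians. Farsa at 0.8 µM lay above vehicle at 48 h on every array, as 2.36% of all genes did, with a change of 0.34 ± 0.10 that did not pass the test (adjusted p = 0.0616, limma).

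The 2 genes lower at 0.8 µM were also among those that differed with time in the vehicle cultures, and both comparisons share the 48 h vehicle arrays. In vehicle, 5 synthetases were higher at 48 h than at 24 h (6.48% of all genes were) and 2 were lower (6.7% were, 13.2% in all). Lars1 was higher by 0.35 ± 0.06, Eprs1 by 0.29 ± 0.06, Nars1 by 0.22 ± 0.07, Farsb by 0.21 ± 0.06 and Mars1 by 0.19 ± 0.06, while Farsa was at -0.33 ± 0.10 and Qars1 at -0.17 ± 0.05. The mean of Eprs1 at 48 h minus that at 24 h was -0.02 in the 0.8 µM cultures, against 0.29 in vehicle. All 7 are cytosolic. The count was 4 without the array titled 2 h and 2 with arrays centred on their medians.

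The comparison of 20 µM with 0.8 µM uses no vehicle array. There 11 cytosolic and 0 mitochondrial synthetases were higher at 24 h (8.68% of all genes were, and 15.6% were called in all), and 15 cytosolic and 1 mitochondrial at 48 h (14.5% and 26.9%). None was lower at either time, where 6.94% and 12.4% of all genes were. All 7 members of the multisynthetase complex were higher at 48 h, including Eprs1 by 0.32 ± 0.06 and Mars1 by 0.27 ± 0.06. Sars1 was higher by 0.62 ± 0.11 at 24 h and 0.84 ± 0.11 at 48 h. Fars2 was the mitochondrial one, higher by 0.23 ± 0.09 at 48 h (adjusted p = 0.0478, limma). Aars1 was higher by 0.40 ± 0.06 at each time.

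Cytosolic genes with and without the promoter letters shown above were set side by side. At 24 h, 5 of the 7 genes with TGATGCAA and 8 of the 10 without it were called higher at 20 µM, with median changes of 0.27 and 0.28. At 48 h 3 of 7 and 8 of 10 were, with medians of 0.18 and 0.25. Of the genes shown with a match, Iars1 and Yars1 were called at both times, Mars1 and Nars1 at 24 h, and Cars1 and Tars1 at neither. Sars1, with the largest change, had no match in its window. Sequence outside the windows was not searched, and the part of the element in these changes was not tested.

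Other parts of the same machinery were described by lists, whose counts at 20 µM stand beside 13.4% higher and 10.4% lower over all genes tested at 24 h, and 20.3% and 14.9% at 48 h. All 3 scaffold genes of the multisynthetase complex rose at both times: Eef1e1 by 0.47 ± 0.04 and 0.43 ± 0.04, Aimp1 by 0.33 ± 0.05 and 0.52 ± 0.05, and Aimp2 by 0.27 ± 0.05 and 0.29 ± 0.05. Of 28 genes of ATF4 and its targets, 18 were higher and 3 lower at each time, with medians of 0.40 and 0.36. Atf4 itself rose by 0.30 ± 0.04 and 0.32 ± 0.04. The pseudokinase gene Trib3 rose by 0.95 ± 0.11 and 1.04 ± 0.11, and Ddit3, which encodes CHOP, by 0.57 ± 0.12 and 1.30 ± 0.12. Cth, a cystathionine lyase gene, fell by 0.59 and 1.28. At 0.8 µM and 48 h, 1 of the 28 was higher and 4 were lower, where 1.59% and 1.74% of all genes were. Among the lower ones was Asns, asparagine synthetase, at -0.31 ± 0.07. Impact, an inhibitor of the eIF2 kinase GCN2, and Ppp1r15a, a subunit of the eIF2 phosphatase, were the 2 of 8 genes called in their list, higher at both times.

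Cytosolic initiation and elongation factors gave 14 of 23 genes higher and 0 lower at each time, with medians of 0.23 and 0.20. Eef1b2, an exchange factor of elongation factor 1, rose by 0.33 ± 0.07 and 0.58 ± 0.07. Mitochondrial ribosomal proteins gave 28 of 73 higher and 0 lower at 24 h and 44 higher and 1 lower at 48 h, with medians of 0.13 and 0.20. Mitochondrial translation factors were listed together with Lrpprc, Slirp and Mtres1, which are genes for other RNA-binding proteins. That list gave 0 of 10 higher and 1 lower at 24 h, and 4 higher and 2 lower at 48 h. Over all genes 13.4% and 20.3% were higher, and 10.4% and 14.9% lower. Gfm2 was lower at both times, at -0.56 ± 0.18 and -0.49 ± 0.18, and the elongation factor gene Tufm at 48 h, at -0.23 ± 0.06. Higher at 48 h were Mrrf (0.48 ± 0.07), Mtif2 (0.41 ± 0.15), Mtrf1l (0.25 ± 0.08) and Slirp (0.24 ± 0.06). Of 13 genes for mitochondrial amidotransferase and tRNA modification, 2 were higher and 1 lower at 24 h, and 1 higher and 2 lower at 48 h, which is near or under the shares of all genes. Gatc, a subunit of the amidotransferase that makes mitochondrial glutaminyl-tRNA in place of a synthetase, rose by 0.31 ± 0.07 and 0.40 ± 0.07, and Hsd17b10, a subunit of mitochondrial RNase P, was at -0.32 ± 0.06 and -0.47 ± 0.06.

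For tRNA maturation and export, the 17 genes tested gave 5 higher ones at 24 h and 7 at 48 h, and 0 lower ones. The RNase P subunit gene Rpp40 rose by 0.55 ± 0.09 and 0.90 ± 0.09, and the tRNA methyltransferase genes Trmt1 and Nsun2 by 0.32 ± 0.09 and 0.32 ± 0.10 at 24 h and 0.51 ± 0.09 and 0.43 ± 0.10 at 48 h. The list for RNA polymerase III, which transcribes tRNA genes, held its Polr3 subunits and also Brf, Gtf3c and Maf1 genes, which are not subunits. In that mixed list 2 of 16 genes were higher at 24 h (Polr3f and Polr3g) and 3 at 48 h (Polr3c, Polr3k and Brf2). These counts are near the shares of all genes (13.4% and 20.3%). Of 4 trans-editing and tRNA recycling genes, 0 were called at 24 h and 1, Dtd1, at 48 h.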

How the data were processed

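RNA of 30 hepatocyte cultures was measured on oligonucleotide arrays of 31099 probe sets, 1 array per culture. The deposited values are linear intensity signals; MAS5 is named in the submitters' processing notes with no version, and the scaling is not given in the sources used here. Every array had the same trimmed mean. Signals were floored at 16 and taken to log2, and probe sets over the 40th percentile of their array on at least 5 arrays were kept. Symbols came from GEO's platform table, in which 20832 probe sets had 1 symbol, 436 several and 9780 none; each gene took its probe set with the highest mean. A fit of 6 group means over all 30 arrays used limma 3.58.1 in R 4.3.3, with a mean trend in the variance and Benjamini-Hochberg adjustment over 11504 genes per comparison. It was tested on simulated data. Pairs of genes were compared by the log ratio per array, with its spread pooled over the 6 groups. Promoters came from RefSeq tables of GRCr8; 1 stretch with a match is not reported here. The number of arrays limits the precision. The members and the lists were chosen with earlier results of these data known. Values of single arrays are given for the 8 cytosolic and up to 4 mitochondrial genes of largest change among those called at 20 µM, and for those called at 0.8 µM. Alternatives were the floor, filter, normalization, variance model, array weights, array number, probe set choice, threshold, groups in the fit, single arrays left out and, chosen after seeing the data, a block for the round of arrays.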

Additional observations from a re-analysis of the deposited data

Results flagged for a closer look

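In 8 of 186 sets of 5 arrays (31 synthetases in 6 groups) 1 array stood apart from the other 4 by Dixon's test at its 95% level, where chance alone marks about 1 set in 20. At 20 µM and 48 h, Tars1 was 12.22 on replicate 5, with the others at 12.39 to 12.45. At 0.8 µM and 48 h, Cars1 was 11.39 on replicate 3 (others 11.18 to 11.24) and Wars2 was 9.48 on replicate 4 (others 9.12 to 9.16). At 0.8 µM and 24 h, Eprs1 was 13.22 on replicate 3 (others 12.94 to 13.01), Mars1 was 12.52 on replicate 2 (others 12.65 to 12.70) and Yars1 was 12.99 on replicate 1 (others 12.58 to 12.69). In vehicle at 48 h, Wars1 was 10.48 on replicate 3 (others 10.81 to 10.93) and Aars2 was 7.51 on replicate 1 (others 8.45 to 8.67). No synthetase passed limma's test of a difference between its 48 h and 24 h changes at 20 µM.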

How the results depend on the processing

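No call of a named change turned its direction under any alternative run. With the mean of all kept probe sets, the count at 20 µM and 24 h was 8 in place of 16 (cytosolic 7 in place of 14, mitochondrial 1 in place of 2), mitochondrial genes higher at 48 h were 2 in place of 1, 20 µM against 0.8 µM at 24 h gave 6 in place of 11, 0.8 µM at 48 h gave 0 in place of 2 and vehicle over time 3 in place of 7. With only the groups compared in the fit, mitochondrial genes higher at 24 h were 1, mitochondrial genes lower at 48 h 1 in place of 0, 0.8 µM at 48 h 1 and vehicle over time 2. At an adjusted p of 0.01 they were 0 mitochondrial at 24 h, 1 at 0.8 µM and 48 h, and 2 in vehicle. Median centring gave 0 at 0.8 µM and 48 h and 2 in vehicle; without the variance trend the first was 1. Array weights gave 2 in place of 0 for the difference between times, and without the array titled 2 h vehicle over time gave 4. The causes were not tested. Leaving out single arrays gave 12 to 16 calls at 20 µM and 24 h (cytosolic 11 to 14, mitochondrial 1 to 3), 13 to 15 at 48 h (12 to 14 and 1 to 2), 0 to 0 and 1 to 3 at 0.8 µM, 10 to 12 and 15 to 17 for 20 µM against 0.8 µM, 0 to 2 for the difference between times and 3 to 7 in vehicle. The labels give no replicate numbers shared between groups, but array numbers run in 5 rounds with 1 array of each group. A fit with the round as a replicate block, chosen after seeing the data, gave 16 calls at 20 µM and 24 h and 15 at 48 h, 2 mitochondrial genes higher at 48 h (Hars2 was added, 0.17, adjusted p = 0.0414 by limma), 1 call in place of 0 for the difference between times (Mars1, -0.24, adjusted p = 0.0451) and 6 in vehicle over time; it moved no other count by over 1.5 times. Arrays of the same round shared deviations weakly (mean r 0.02, range -0.09 to 0.17, over 75 pairs), and 13 of 30 were closest to their own round. Dim probe sets limit the mitochondrial genes: Aars2 was over its array's 40th percentile on 25 of 30 arrays and Sars2 on 29.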

Other observations

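Of the 31 synthetases tested, 14 had more than 1 probe set, and their 18 further probe sets were all kept. Tested together with all 15679 kept probe sets, 3 of the 18 were higher at 20 µM and 24 h and 4 at 48 h, and 0 were lower. Over the 11504 genes tested on 1 probe set each, 13.4% and 20.3% were called higher, and 10.4% and 14.9% lower. The counts of further probe sets called higher are near those shares, which come from a different test. The share over all 15679 kept probe sets is not given here. The 18 further probe sets had the sign of the probe set used in 13 of 18 cases at 24 h and 15 of 18 at 48 h. Iars1, the isoleucyl enzyme, was higher on its further probe set at 48 h, by 0.50 ± 0.17, and Wars1 by 0.40 ± 0.14. A further probe set of Cars1, whose main probe set was called at neither time, was higher at 24 h by 0.25 ± 0.09, and another was at -0.17 ± 0.12 at 48 h. That of Farsb was at -0.01 ± 0.20 and -0.13 ± 0.20, and that of Kars1 at -0.07 ± 0.29 and 0.02 ± 0.29, with wide errors.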
